A study of Mus musculus with 58 samples.

Results

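The genes described here encode the machinery that holds RNA polymerase II (RNAPII) near the promoter, releases it and terminates it early. The set has 35 named genes, of which 33 were analysed among the 20177 genes in the count files, and Nelfa and Supt16 were not analysed here. The members were taken from a list of gene names, with no threshold on a measured value. They comprised 12 subunits of Integrator, 3 of the negative elongation factor NELF, the pair of DSIF subunits with the histone chaperone Supt6, 3 genes of the kinase P-TEFb, 2 genes of its 7SK inhibitory particle, 5 subunits of the PAF1 complex, 2 of RNAPII itself, 1 of FACT and 2 of the super elongation complex.

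As background, RNAPII starts transcription and then stops a short distance downstream of the promoter, where DSIF and NELF hold it. P-TEFb, the kinase CDK9 with a T-type cyclin, phosphorylates DSIF, NELF and the polymerase tail and so lets elongation begin, after which SPT6, the PAF1 complex and FACT travel with the polymerase through chromatin. HEXIM1 and the 7SK RNA binding protein LARP7 keep part of P-TEFb inactive in a small nuclear ribonucleoprotein, and Integrator, whose INTS11 subunit cuts RNA, ends transcription of small nuclear RNAs and of many paused polymerases.

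The question put to these genes was how their own messenger RNA behaved when the H3K4 methyltransferase complexes (COMPASS) lost a core subunit. All samples were E14 mouse embryonic stem (mES) cells or cells derived from them. The DPY30-mAID line carries the auxin-inducible degron mAID with a BFP reporter at both Dpy30 alleles and an OsTIR1-P2A-mCherry transgene, so that auxin triggers degradation of DPY30; it was labelled at 0, 2, 8 and 24 h of auxin with 3 libraries per time. The RBBP5-FKBP line is a clone with both Rbbp5 alleles fused to FKBP12(F36V)-2xHA, degraded by dTAG-13, with 3 libraries at each of the same times. The DPY30-mAID Kdm5a/b dKO line was made from the DPY30-mAID line by knocking out Kdm5a and then Kdm5b, which encode H3K4 demethylases, and was sampled at 0, 2, 4, 8, 24 and 48 h of auxin with 2 libraries per time. The RBBP5-FKBP line is a picked clone. For the dKO the study picked 2 clones, and which of them gave each library is not given in the sources used here. The study describes its SLAM-seq libraries as biological replicates. Whether they came from separate cultures is not given in the sources used here, so p-values measure the spread between these libraries. In SLAM-seq, 4-thiouridine (4SU) given for the last 60 min marks newly made RNA as T>C conversions in 3′ end reads, and T>C reads per 1000000 total reads, with the library's total scaled by its TMM normalization factor (T>C CPM), stand beside total reads on the same scale (CPM).

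A separate Quant-seq course, without 4SU, followed DPY30-mAID cells in 1 µM retinoic acid (RA) without LIF. It sampled 0 h, 8 h and days 1, 2, 4 and 6 with the solvent DMSO, and the times after 0 h also with auxin. Every group after 0 h was in RA without LIF. In comparisons with 0 h, RA, LIF withdrawal and time in culture thus cannot be told apart. Each group had 2 libraries, but the 2 DMSO libraries of day 6 held identical values and were counted as 1 sample, so day 6 entered no test.

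Total reads ran from 2013350 to 2806821 per library in the DPY30-mAID line, from 1721185 to 2852331 in the RBBP5-FKBP line, from 5931269 to 7792404 in the dKO line and from 1264241 to 2543632 in the RA course. T>C reads made up 5.51 to 16.1% of reads in DPY30-mAID libraries, 4.85 to 10.1% in RBBP5-FKBP libraries and 2.04 to 5.27% in dKO libraries, and reads of the dKO line covered fewer T positions, so these shares are not compared between lines. The 3 DPY30-mAID libraries at 8 h stood apart from each other, at 13.0, 9.82 and 5.51%. Median Kdm5b was 123 CPM in the dKO line against 844 and 747 CPM in DPY30-mAID and RBBP5-FKBP cells, and median Kdm5a was 32.5 against 93.4 and 99.2 CPM. The 6 ES cell markers summed to 3153 to 4166 CPM in every SLAM-seq library, and the 4 primitive endoderm markers to at most 21.5 CPM. Of the reads of Pou5f1, Zfp42, Klf4 and Nanog, 99.3, 86.9, 40.0 and 28.9% mapped to more than 1 place. For Krt8 and Tubb3 the shares were 87.4 and 44.5%. The levels of these markers, and sums that hold them, are uncertain. In DPY30-mAID cells the ES cell sum was 3844 to 4141 CPM at 0 h and 3250 to 3261 CPM at 8 h, without overlap, where mean Nanog went from 556 to 354 CPM, Zfp42 from 462 to 299 CPM, Esrrb from 628 to 476 CPM and Klf4 from 523 to 404 CPM (adjusted p 9.00e-06, 0.00201, 0.00469 and 0.0233, edgeR). At 24 h the sum overlapped 0 h, but mean Klf4 went from 523 to 202 CPM and Esrrb from 628 to 356 CPM (adjusted p 1.83e-13 and 6.17e-09, edgeR), while Zfp42 went from 462 to 610 CPM (adjusted p 0.0265). Of the other ES cell markers, mean Pou5f1 was 928, 951 and 1058 CPM at 0, 8 and 24 h. Mean Sox2 was 920, 772 and 1067 CPM at these times, and Nanog was 551 CPM at 24 h. The 4 neural markers summed to 102 to 126 CPM at 0 h and 36.2 to 53.5 CPM at 24 h in the same line, and the 4 trophectoderm markers to 39.4 to 46.6 and 15.4 to 27.6 CPM. Over all libraries Krt8 and Krt18 had 16794 and 3409 reads, Cdx2 467 and Elf5 19. The trophectoderm sum thus mostly follows the keratin genes. In this line mean Krt8 went from 36.9 CPM at 0 h to 15.1 CPM at 24 h, and Krt18 from 5.57 to 7.85 CPM. In RBBP5-FKBP cells the trophectoderm sum was 33.0 to 34.5 CPM at 0 h and 3.49 to 12.6 CPM at 24 h. At 8 h, when total reads of members were called in that line, it was 7.88 to 16.8 CPM, the neural sum was 94.1 to 108 CPM against 65.3 to 79.4 CPM at 0 h, and the ES cell sum 3577 to 3784 against 3153 to 3361 CPM. In dKO cells the neural sum was 38.5 to 42.5 CPM at 0 h, 27.9 to 32.6 CPM at 24 h and 25.6 to 32.9 CPM at 48 h. The trophectoderm sum of these cells was 28.5 to 28.8, 22.4 to 22.7 and 33.6 to 36.1 CPM at the same times. Their primitive endoderm sum was 18.6 to 21.5 CPM at 0 h and 13.2 to 18.5 CPM at 48 h. The part of these markers in the members' values was not tested. DPY30 and RBBP5 were removed as proteins, so their transcripts are no check of the degradation. In bulk samples, fewer cells of a type and less RNA per cell cannot be told apart.

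How much of each member's RNA was newly made before any degradation was read from the share of its reads with a T>C conversion at 0 h, ranked among all genes that averaged 100 or more reads. In every line the P-TEFb genes stood in the upper part of this ranking and Supt5, Nelfcd and Nelfe in its lower part. The kinase gene Cdk9 had 45.8% ± 5.33 T>C reads (SD, n = 3) in the DPY30-mAID line, at percentile 99.2 of 4080 genes, whose median was 17.7%. It ranked at percentile 96.9 in RBBP5-FKBP cells and 92.6 in dKO cells. About 80.9% of Cdk9 reads mapped to more than 1 place, so its level is uncertain. The cyclin T1 gene Ccnt1, which is free of that problem, held 28.0% ± 1.58 (percentile 79.5), 22.7% ± 0.936 (SD, n = 3, percentile 91.3) and 15.7% ± 0.484 (SD, n = 2, percentile 93.2) in the DPY30-mAID, RBBP5-FKBP and dKO lines.

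The P-TEFb inhibitor and its partner lay apart in the same ranking. Hexim1 had 39.0% ± 1.72 T>C reads in DPY30-mAID cells (SD, n = 3), percentile 96.5, and ranked at percentile 97.7 in RBBP5-FKBP cells. Larp7 had 12.8% ± 4.65 (SD, n = 3), percentile 31.2, and ranked at percentiles 38.2 and 34.9 in the other lines. Hexim1 is one of the genes with intermediate mapping, since 16.4% of its reads had more than 1 position.

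Most DSIF and NELF genes carried few labelled reads. Supt5, the large DSIF subunit, had 8.21% ± 1.69 T>C reads in DPY30-mAID cells (SD, n = 3), and its percentile was 14.2, 21.7 and 13.2 in the DPY30-mAID, RBBP5-FKBP and dKO lines. Nelfcd stood at percentiles 32.4, 6.33 and 7.22 in the same order, and Nelfe at 21.1, 32.3 and 2.75, while Nelfb, ranked in RBBP5-FKBP and dKO cells, stood at 63.1 and 51.7. Across the members that could be ranked, 23, 24 and 30 in the 3 lines, the median percentile was 49.2, 47.8 and 52.7 of all genes.

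**Figure D1:**
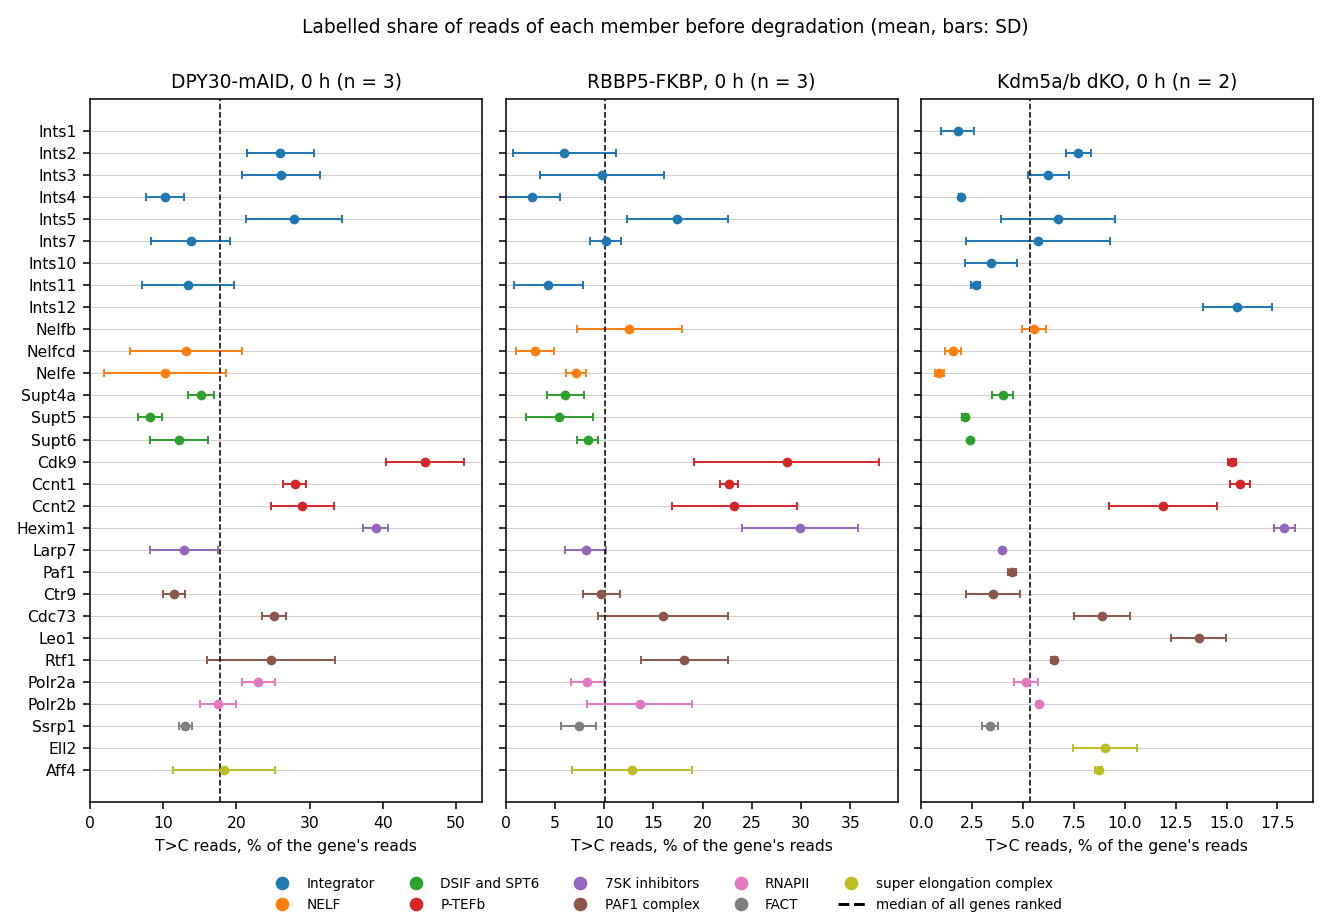
Share of each member's reads with a T>C conversion at 0 h (mean, bars SD), with a panel per line. Members are coloured by subcomplex, and the dashed line is the median of all ranked genes. The P-TEFb genes lie above the dashed line in every panel, and their median percentiles were 81.8, 92.2 and 92.6. The DSIF and SPT6 genes lie below it, with median percentiles of 28.7, 25.7 and 16.4.

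Integrator and PAF1 subunits were spread across the ranking. The endonuclease gene Ints11 stood at percentiles 33.6, 13.9 and 19.8 in the DPY30-mAID, RBBP5-FKBP and dKO lines, and Ints4, its partner in the cleavage module, at 21.4, 4.77 and 11.1. Ints5 was higher, at 79.4, 80.7 and 61.3. Rates per T position, which account for the bases a read covers, kept Ccnt1 at percentiles 87.5, 95.7 and 95.9 and Supt5 at 19.2, 26.1 and 13.2, but moved Ints11 to 57.3 in DPY30-mAID cells.

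Upon degradation, members with lower T>C reads were called in all 3 lines, and no member passed as higher in any line at any time. In DPY30-mAID cells at 8 h of auxin, 7 of 29 tested members passed edgeR's quasi-likelihood test (adjusted p below 0.05 over all tested genes) and all 7 were lower, where 16.1% of all 6317 tested genes were lower and 0.158% higher. The members' median log2 fold change was −0.71 and the median over all genes was −0.71. At 24 h, 3 members were lower (2.79% of all genes lower, 0.823% higher). At 2 h the test called 0 members and 0.00% of all genes, with 1 member at an unadjusted p below 0.05, and DESeq2 called 0.

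The RBBP5-FKBP line gave 2 lower members of 24 tested at 8 h (7.71% of 4761 genes lower, 0.126% higher) and 6 at 24 h (25.9% and 0.189%). The members' medians were −0.62 and −0.85, against −0.50 and −0.91 over all genes. At 2 h 0 members passed by edgeR (0.252% of all genes lower), 0 had an unadjusted p below 0.05 and DESeq2 called 0.

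Loss of DPY30 in the dKO line was followed at more times. Of 27 tested members, 14 were lower at 24 h (43.0% of 5965 genes lower, 0.151% higher) and 20 at 48 h (72.2% and 0.134%), with member medians of −0.84 and −1.18 against −0.80 and −1.29 over all genes. At 2, 4 and 8 h edgeR called 0 members, and 0.00%, 0.587% and 1.54% of all genes lower and 0.00%, 0.00% and 0.0168% higher. At these times 2, 7 and 5 of 27 members were lower at an unadjusted p below 0.05, as were 346, 803 and 680 of all 5965 genes, and DESeq2 called 0 members. The members' medians were −0.18, −0.20 and −0.32, against −0.12, −0.26 and −0.19 over all genes. At 24 and 48 h the members' share thus lay near that of all genes. Too few T>C reads left Ints1, Ints6, Ints8 and Ints10 untested in DPY30-mAID cells, these genes with Ints4, Ints9, Ints12, Nelfcd and Nelfe in RBBP5-FKBP cells, and the same 4 with Ints9 and Nelfe in dKO cells. Ints8 was also too low to test in total reads, and Ints6 and Ints8 in the RA course.

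T>C reads of most genes shifted with those of the members. Scaling T>C reads by their own TMM factors, which removes a shift common to all genes, moved the median of all genes from −0.71 to −0.09 in DPY30-mAID cells at 8 h, from −0.91 to −0.20 in RBBP5-FKBP cells at 24 h and from −1.29 to −0.11 in dKO cells at 48 h. With that scaling only Hexim1 stayed lower among the members at 8 h in DPY30-mAID cells, 0 members passed in RBBP5-FKBP cells at 8 or 24 h, and Polr2a and Ccnt2 were the members lower at 48 h in dKO cells. It also left 4 members lower and 1 higher (Ccnt1) in DPY30-mAID cells at 24 h, and 3 lower (Cdk9, Ints2 and Ssrp1) in dKO cells at 24 h. It turned the sign of 10 dKO calls, those of Ccnt1 and Cdc73 at 24 h and of Ints12, Supt4a, Hexim1, Larp7, Cdc73, Rtf1, Polr2b and Ell2 at 48 h, to values of 0.0022 to 0.55. The fold changes of T>C reads below are on the scale of total reads and are to be read against the all-gene medians. Without library 1, 2 or 3 of DPY30-mAID cells at 8 h, which differed in T>C share, the count of 7 members became 13, 1 and 3. Each call was refitted without 1 library or 1 replicate number at a time, and losses in these fits are given beside calls printed with their own adjusted p. Of the calls counted above, 0 of 7 and 0 of 3 in DPY30-mAID cells at 8 and 24 h, 0 of 2 and 2 of 6 in RBBP5-FKBP cells at 8 and 24 h, and 6 of 14 and 12 of 20 in dKO cells at 24 and 48 h held in every such fit.

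**Figure D2:**
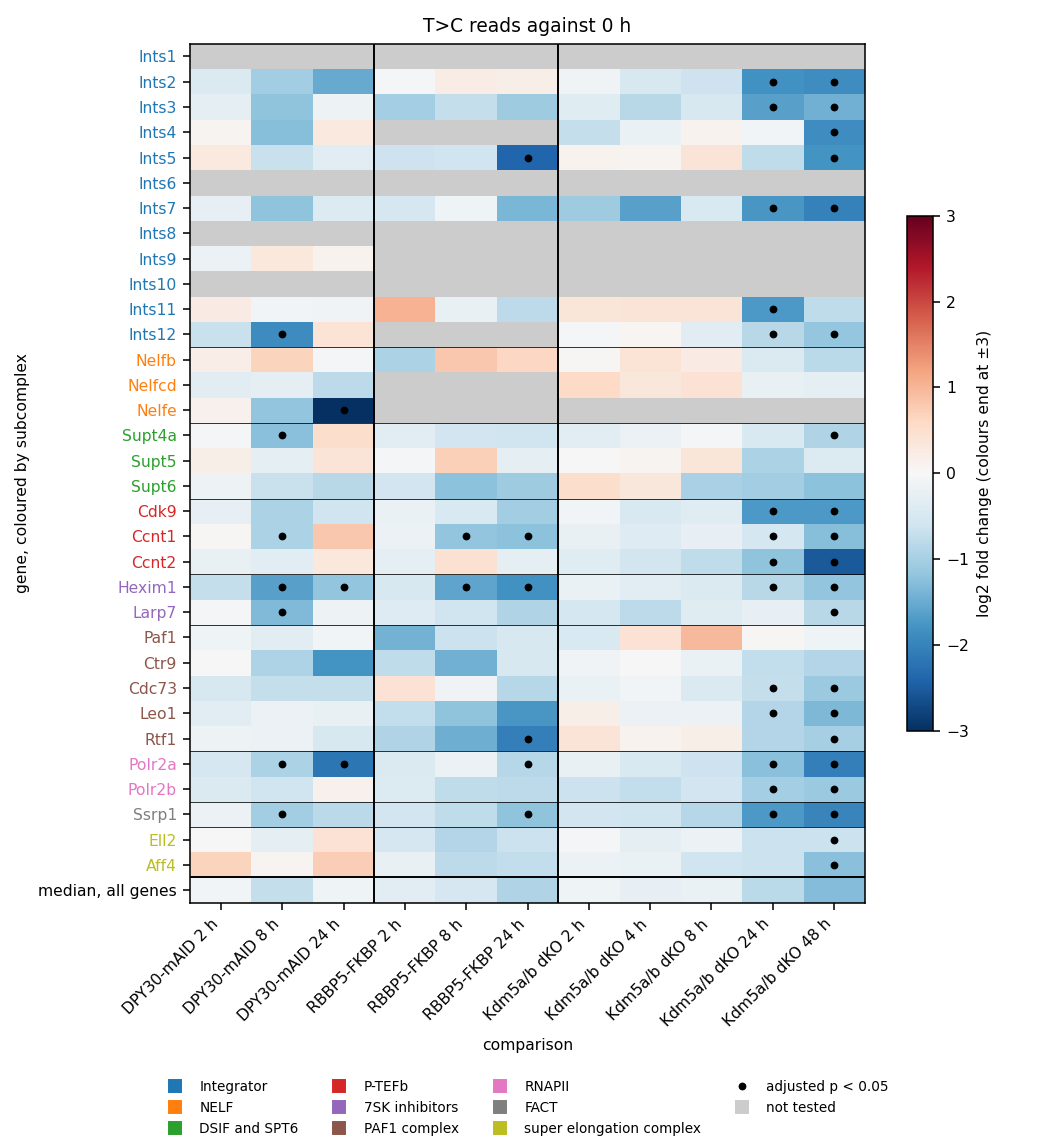
Log2 fold change of T>C reads against 0 h for each member (rows, by subcomplex) at each time in the DPY30-mAID, RBBP5-FKBP and dKO lines (columns), with dots where the adjusted p was below 0.05, grey where a gene was not tested and the all-gene median in the last row. Colours deepen at 8 h in DPY30-mAID cells and at 24 and 48 h in dKO cells together with the all-gene median of −0.71, −0.80 and −1.29.

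The inhibitor of P-TEFb was among the members lowered most in both degron lines. Hexim1 (ENSMUSG00000048878, GRCm38 chr11:103116231-103119725, plus strand) had 74.2, 62.2 and 74.3 T>C CPM at 0 h in DPY30-mAID cells and 29.1, 16.9 and 21.4 at 8 h. No 8 h library reached the lowest 0 h library, and the log2 fold change was −1.64 (SE 0.34, adjusted p 0.000938, edgeR). At 24 h the values were 26.0, 28.8 and 37.6, a log2 change of −1.19 (SE 0.333, adjusted p 0.0313). Without replicate 2 the 8 h value was −1.56 and its adjusted p 0.168, and the 24 h call held in 1 of 3 fits, being lost without replicate 1 or 2 (−1.31 to −1.04, adjusted p up to 0.456).

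In RBBP5-FKBP cells Hexim1 had 39.9, 46.5 and 41.2 T>C CPM at 0 h, 15.2, 14.6 and 13.1 at 8 h and 11.8, 10.3 and 13.9 at 24 h. The groups did not overlap, and the log2 changes were −1.57 (SE 0.348, adjusted p 0.00174) and −1.82 (SE 0.35, adjusted p 5.38e-05). The 24 h call held without each replicate, and the 8 h adjusted p rose to 0.0621 without replicate 2. In dKO cells the values were 10.9 and 12.5 at 0 h, 5.35 and 7.87 at 24 h and 4.07 and 6.21 at 48 h. Both later times lay below 0 h, by −0.83 (SE 0.265, adjusted p 0.0095) and −1.18 (SE 0.275, adjusted p 0.000146), and the all-gene median there was −0.80 and −1.29, close to Hexim1 itself. The 24 h call was lost without the second 0 h or the first 24 h library (adjusted p up to 0.168).

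Larp7 (GRCm38 chr3:127536714-127553349, minus strand), which binds and protects 7SK RNA, had 29.1, 15.5 and 20.0 T>C CPM at 0 h in DPY30-mAID cells and 9.29, 10.3 and 6.11 at 8 h. All 8 h libraries were lower, with a log2 change of −1.32 (SE 0.452, adjusted p 0.0382), a call held in 1 of 6 fits, that without the first 8 h library (adjusted p up to 0.203 in the rest). At 24 h Larp7 had 9.60, 27.3 and 21.3 T>C CPM, which overlapped 0 h. In RBBP5-FKBP cells it passed at neither 8 h nor 24 h, and in dKO cells it fell by 0.84 on the log2 scale at 48 h (SE 0.354, adjusted p 0.0298), held in 1 of 4 fits, that without the second 0 h library. In dKO cells at 0 h 3.96% of Larp7 reads carried a conversion, against 1.97% in the unlabelled Quant-seq libraries.

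The T-type cyclins followed different courses. Ccnt1 (GRCm38 chr15:98538689-98570923, minus strand) had 120.3, 98.7 and 120.1 T>C CPM at 0 h in DPY30-mAID cells and 76.3, 57.6 and 40.1 at 8 h (log2 change −0.96, SE 0.29, adjusted p 0.0181, up to 0.262 without replicate 2). At 24 h it had 206, 199 and 186 T>C CPM, all above 0 h (log2 change 0.80, adjusted p 0.0972). In RBBP5-FKBP cells it went from 73.8, 68.2 and 66.8 T>C CPM at 0 h to 24.2, 29.7 and 37.1 at 8 h and 32.8, 28.9 and 26.9 at 24 h. Both times were lower without overlap, by −1.19 (SE 0.26, adjusted p 0.00147) and −1.23 (SE 0.259, adjusted p 0.000205). In dKO cells Ccnt1 had 28.0 and 27.9 T>C CPM at 0 h, 21.0 and 17.7 at 24 h and 11.2 and 11.8 at 48 h, log2 changes of −0.53 (SE 0.184, adjusted p 0.0164) and −1.28 (SE 0.195, adjusted p 3.50e-08). Of these, the RBBP5-FKBP call at 8 h was lost without replicate 1 (adjusted p 0.0625) and the dKO call at 24 h without the second library of 0 h or of 24 h (up to 0.17).

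Ccnt2 showed the lowest fold change of the members in dKO cells at 48 h. Its T>C CPM was 9.09 and 11.8 at 0 h and 1.45 and 2.17 at 48 h, a log2 change of −2.52 (SE 0.335, adjusted p 6.04e-10) that held without each library in turn. About 15.6% of its reads mapped to several places. In DPY30-mAID cells at 8 h it had 24.6, 21.1 and 16.1 T>C CPM against 37.1, 22.5 and 17.7 at 0 h, which overlapped. Cdk9 in dKO cells went from 13.4 and 14.2 T>C CPM to 4.95 and 3.47 at 48 h (log2 change −1.71, SE 0.264, adjusted p 4.37e-08), with the limit on its mapping given above.

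Total reads, which count old and new RNA together, were tested in the same way. In total reads of DPY30-mAID cells at 8 h, 4 of 32 tested members were lower (7.61% of 9848 genes) and 2 were higher (5.38%), and at 24 h 11 were lower (17.1%) and 4 higher (15.9%). The members' median was −0.27 at 24 h against 0.01 over all genes. At 2 h edgeR called 0 members (0.0305% of all genes lower, 0.00% higher), with 3 members at an unadjusted p below 0.05 and 0 by DESeq2.

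Hexim1 total reads were lower at 8 and 24 h than at 0 h in DPY30-mAID cells. They were 181, 165 and 194 CPM at 0 h, 103, 95.6 and 101 CPM at 8 h and 65.6, 62.0 and 101 CPM at 24 h. Both times lay below 0 h without overlap, with log2 changes of −0.85 (SE 0.158, adjusted p 0.000118) and −1.24 (SE 0.161, adjusted p 1.89e-08), the latter 2.36-fold lower. Larp7 went from 160.4, 159 and 190.3 CPM to 69.0, 107 and 103 CPM at 8 h (log2 change −0.87, SE 0.167, adjusted p 0.000164) and 118, 104 and 69.4 CPM at 24 h (−0.81, SE 0.166, adjusted p 0.000123). Both genes kept these calls without each replicate in turn, so the whole 7SK pair was lower in total RNA at both times.

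Ccnt1 fell and then rose in the same libraries. Its total reads were 440.0, 368 and 404 CPM at 0 h, 289.5, 267 and 296 CPM at 8 h and 546, 519 and 535 CPM at 24 h. The 8 h libraries were all lower (log2 change −0.51, SE 0.105, adjusted p 0.000558) and the 24 h libraries all higher (0.40, SE 0.104, adjusted p 0.00192), the second call being lost without replicate 2 (adjusted p 0.0737). Cdk9 was lower at 24 h (−0.52, SE 0.19, adjusted p 0.0307), with overlapping groups at 112, 115 and 71.3 CPM at 0 h and 86.4, 65.0 and 56.0 CPM at 24 h, and the call was lost without replicate 1 or 2 (adjusted p up to 0.33).

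Fewer total changes were called in the other lines. In RBBP5-FKBP cells at 8 h, 2 of 32 members were lower (5.12% of 9676 genes) and 2 higher (4.13%). Hexim1 had 115, 148 and 176 CPM at 0 h and 92.8, 72.9 and 100.0 CPM at 8 h (log2 change −0.72, SE 0.175, adjusted p 0.011), and Ccnt1 was lower by −0.40 (SE 0.126, adjusted p 0.0465). Ccnt2 was higher, from 78.5, 60.7 and 69.7 CPM to 111, 97.0 and 109.5 CPM (0.61, SE 0.185, adjusted p 0.0409). The cyclin calls were each lost without any 1 replicate (adjusted p up to 0.23 and 0.211) and that of Hexim1 without replicate 2 or 3 (up to 0.136). At 24 h edgeR called 0 members against 4.49% of genes lower and 2.99% higher, with 5 members at an unadjusted p below 0.05 and 0 by DESeq2. Hexim1 at that time had 106, 108 and 106 CPM, below every 0 h library, at a log2 change of −0.46 (SE 0.17, adjusted p 0.107). At 2 h the count was 0 (0.00% lower and 0.00% higher over all genes), with 3 members at an unadjusted p below 0.05 and 0 by DESeq2.

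Total reads in dKO cells moved little. Cdk9 and Polr2a were the 2 of 32 members lower at 24 h (6.44% of 11394 genes), and no member was higher (5.05% of all genes higher). Both calls held only in the fit without the first 0 h library, the adjusted p reaching 0.129 for Cdk9 and 0.0999 for Polr2a in the rest. At 48 h, 1 member was lower (7.84%) and 3 were higher (6.72%). Ccnt1 was one of these, at 183 and 174 CPM at 0 h and 233 and 237 CPM at 48 h (log2 change 0.40, SE 0.074, adjusted p 0.00192), while its T>C reads were lower. Hexim1 total reads were 62.3 and 68.5 CPM at 0 h and 54.6 and 65.0 CPM at 48 h, which overlapped (log2 change −0.13, adjusted p 0.505). At 2, 4 and 8 h edgeR and DESeq2 called 0 members, with 5, 0 and 5 at an unadjusted p below 0.05, and edgeR called 0.00%, 0.00% and 0.456% of all genes lower and 0.00%, 0.00% and 0.316% higher.

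**Figure D3:**
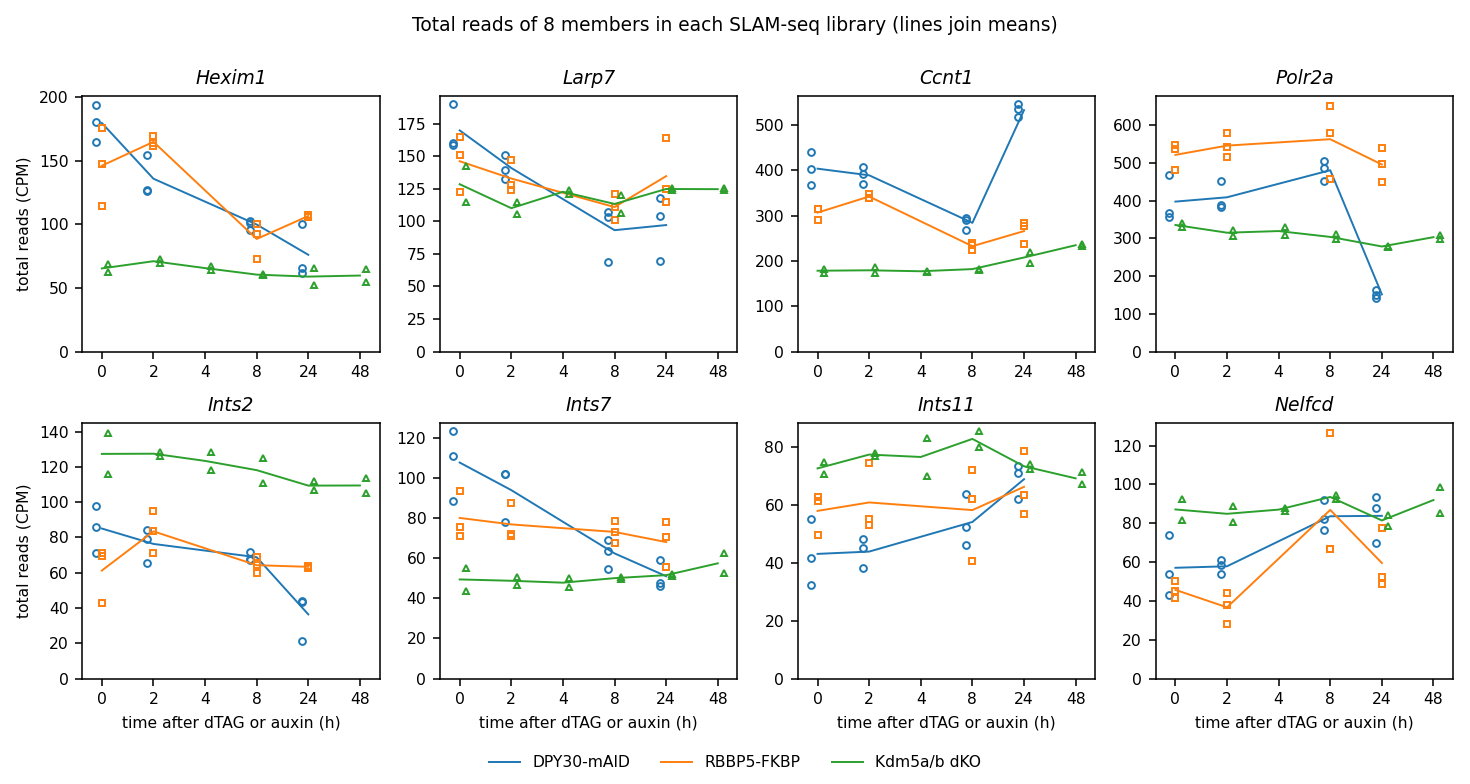
Total reads in CPM of 8 members (one panel each) at 0, 2, 4, 8, 24 and 48 h of degradation, with a point per library, the 3 lines in different colours and lines joining the group means. Hexim1 of DPY30-mAID cells declines from 165 to 194 CPM at 0 h to 62.0 to 101 CPM at 24 h, and Ccnt1 of the same cells dips at 8 h and exceeds its 0 h values at 24 h.

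NELF, which holds the paused polymerase, gave few calls in T>C reads. Nelfe was lower in DPY30-mAID cells at 24 h, where it had 2, 0 and 0 T>C reads against 4, 15 and 30 at 0 h (adjusted p 0.0195). That call rests on 2 reads and was lost without replicate 2 or 3 (adjusted p up to 0.297), so no fold is given. No NELF gene passed at 8 h in DPY30-mAID cells (median of the 3 genes −0.28) or at 48 h in dKO cells (median of 2 genes −0.55), where the all-gene medians were −0.71 and −1.29. In total reads Nelfcd was higher in both degron lines. It had 74.2, 53.8 and 43.2 CPM at 0 h and 76.7, 82.0 and 92.1 CPM at 8 h in DPY30-mAID cells, all above 0 h (log2 change 0.56, SE 0.194, adjusted p 0.0454), a call held in 1 of 6 fits, that without replicate 1 (adjusted p up to 0.412 in the rest). At 24 h it had 70.0, 87.8 and 93.6 CPM, which overlapped 0 h (0.56, adjusted p 0.0206, up to 0.325 without replicate 2 or 3). In RBBP5-FKBP cells it went from 50.3, 41.6 and 45.3 CPM to 66.9, 127 and 67.0 CPM at 8 h (0.93, SE 0.261, adjusted p 0.0274), again lost without replicate 2 or 3 (adjusted p up to 0.411).

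The DSIF and SPT6 genes gave few calls upon degradation. Supt4a, the small DSIF subunit, was lower in T>C reads of DPY30-mAID cells at 8 h (log2 change −1.26, SE 0.43, adjusted p 0.037, up to 0.365 without replicate 2 or 3), but 93.0% of its reads map to more than 1 place and its level is uncertain. Supt5 T>C reads were 5.01, 6.26 and 9.98 CPM at 0 h and 4.04, 9.84 and 3.93 CPM at 8 h, and it passed in no line. Supt6 passed in no T>C comparison, but its total reads in DPY30-mAID cells went from 131, 91.7 and 113 CPM at 0 h to 64.8, 48.6 and 64.8 CPM at 24 h. Every 24 h library was lower (log2 change −0.91, SE 0.173, adjusted p 4.01e-05).

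Integrator, which ends transcription early at many genes, held the largest number of members. In DPY30-mAID cells at 8 h, 1 of 8 tested subunits passed in T>C reads, with a median over the 8 of −1.12, where 16.1% of all genes were lower and their median was −0.71. That subunit was Ints12 (GRCm38 chr3:133091840-133110988, plus strand), a PHD finger protein, with 11.5, 6.26 and 9.61 T>C CPM at 0 h and 5.65, 0.937 and 0.436 T>C CPM at 8 h. All 8 h libraries were lower (log2 change −1.90, SE 0.669, adjusted p 0.0433), but the lowest of them holds 1 T>C read, and the call was lost without replicate 2 or 3 (adjusted p up to 0.275). In RBBP5-FKBP cells at 24 h, 1 of 5 tested subunits passed, where 25.9% of all genes were lower. Ints5 (GRCm38 chr19:8893005-8897888, plus strand) had 34.3, 16.3 and 16.0 T>C CPM at 0 h and 0.437, 8.87 and 3.36 at 24 h, all lower (−2.38, SE 0.528, adjusted p 0.000432), a call lost without replicate 1 (−1.38, adjusted p 0.115). Both genes were also called lower in dKO cells at 48 h, by −1.17 for Ints12 (SE 0.337, adjusted p 0.0019) and −1.79 for Ints5 (SE 0.467, adjusted p 0.000635, and 0.0538 without the second 0 h library), while Ints12 could not be tested in RBBP5-FKBP cells.

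In dKO cells 5 of 7 tested Integrator subunits were lower at 24 h and 6 of 7 at 48 h, where 43.0% and 72.2% of all genes were lower. Their medians were −1.63 and −1.79, against −0.80 and −1.29 over all genes. Of these calls, 1 of 5 at 24 h (Ints2) and 2 of 6 at 48 h (Ints2 and Ints12) held without each library in turn, and with TMM factors from T>C reads only Ints2 at 24 h passed among the subunits at either time. Ints7 (GRCm38 chr1:191575636-191623688, plus strand) had 1.79 and 3.58 T>C CPM at 0 h and 0.728 and 0.578 at 48 h, both lower (−2.03, SE 0.612, adjusted p 0.00287). Without the second 0 h library the change was −1.43 and the adjusted p 0.11. Ints2, a scaffold subunit, went from 10.1 and 9.42 T>C CPM to 2.18 and 3.18 at 48 h (−1.86, SE 0.312, adjusted p 3.75e-07).

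The endonuclease gene of Integrator did not pass in T>C reads of either degron line. Ints11 (ENSMUSG00000029034, GRCm38 chr4:155869546-155889103, plus strand) had 3.51, 6.26 and 6.65 T>C CPM at 0 h in DPY30-mAID cells and 4.44, 3.75 and 7.42 at 8 h, which overlapped (log2 change −0.08, SE 0.65, adjusted p 0.941). In RBBP5-FKBP cells it had 2.82, 0.355 and 4.82 at 0 h and 2.62, 0.933 and 0.959 at 24 h (−0.78, SE 1.02, adjusted p 0.588), from at most 13 T>C reads per library. In dKO cells it had 1.79 and 2.12 at 0 h, 0.705 and 0.446 at 24 h (−1.73, SE 0.623, adjusted p 0.0204, held in 1 of 4 fits, that without the first 0 h library) and 0.291 and 2.02 at 48 h (−0.75, SE 0.55, adjusted p 0.2). The 2 libraries of 48 h stood on either side of the 24 h values, and without the second of them the 48 h change was −2.68 with an adjusted p of 0.00662.

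Total reads of Integrator genes fell for some subunits and rose for Ints11 in DPY30-mAID cells. At 24 h, 3 of 11 tested subunits were lower and 1 was higher, where 17.1% of all genes were lower and 15.9% higher. Ints2 went from 71.2, 97.9 and 86.1 CPM to 21.6, 44.2 and 43.5 CPM (log2 change −1.24, SE 0.213, adjusted p 6.66e-06). Ints7 went from 88.7, 123 and 111 CPM to 54.5, 63.7 and 68.9 CPM at 8 h (−0.79, SE 0.182, adjusted p 0.00181) and 47.6, 46.1 and 59.3 CPM at 24 h (−1.08, SE 0.185, adjusted p 6.54e-06). In both genes every later library named was below every 0 h library, and the 24 h calls held without each replicate in turn, while the adjusted p of Ints7 at 8 h rose to 0.0799 without replicate 2.

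Ints11 total reads were 41.6, 55.2 and 32.5 CPM at 0 h, 52.5, 63.7 and 46.3 CPM at 8 h and 73.6, 70.9 and 62.3 CPM at 24 h. The 24 h libraries were all higher (log2 change 0.67, SE 0.216, adjusted p 0.0124), a call lost without replicate 1 or 3 (0.57 to 0.88, adjusted p up to 0.1). In RBBP5-FKBP cells Ints11 had 61.5, 49.7 and 62.7 CPM at 0 h and 56.8, 63.5 and 78.7 CPM at 24 h, and in dKO cells 70.6 and 74.7 CPM at 0 h and 71.3 and 67.2 CPM at 48 h, and both comparisons overlapped. Ints1, a scaffold of the complex, was higher in dKO cells at 48 h, with 25.3 and 21.6 CPM at 0 h and 33.8 and 34.96 CPM at 48 h (0.55, SE 0.151, adjusted p 0.0219), lost without the second library of either time (adjusted p up to 0.157).

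The subunit that names the PAF1 complex did not pass in any T>C comparison. Paf1 (ENSMUSG00000003437, GRCm38 chr7:28392951-28399388, plus strand) had 7.52, 4.79 and 2.59 T>C CPM at 0 h in DPY30-mAID cells and 7.27, 4.22 and 0 at 8 h (log2 change −0.34, SE 0.83, adjusted p 0.806). Its values were 0.940, 7.46 and 7.42 at 0 h and 3.93, 5.599 and 1.92 at 24 h in RBBP5-FKBP cells (−0.48, SE 0.86, adjusted p 0.706), and 1.19 and 1.19 at 0 h and 1.31 and 0.867 at 48 h in dKO cells (−0.13, SE 0.61, adjusted p 0.843). All 3 comparisons overlapped. Its total reads were higher in DPY30-mAID cells at 8 h, at 50.1, 52.0 and 45.8 CPM against 32.1, 27.2 and 24.8 CPM at 0 h (0.82, SE 0.24, adjusted p 0.0165, lost without replicate 2 or 3 or without the first or second 8 h library, up to 0.172), and at 24 h they were 26.8, 33.2 and 39.7 CPM (0.25, adjusted p 0.463).

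Other subunits of the complex passed in both directions. Rtf1 (GRCm38 chr2:119675068-119735407, plus strand), needed for histone H2B ubiquitylation, had 10.8, 8.52 and 11.9 T>C CPM at 0 h in RBBP5-FKBP cells and 1.75, 1.87 and 3.84 at 24 h. Every 24 h library was lower (−2.05, SE 0.721, adjusted p 0.0279), but the call was lost without each of the 3 replicates in turn (adjusted p 0.0657 to 0.135). Leo1 went from 14.3 and 18.1 T>C CPM in dKO cells to 6.55 and 6.21 at 48 h (−1.34, SE 0.235, adjusted p 8.95e-07). Its total reads fell less, from 113 and 124 CPM to 87.4 and 97.7 CPM (−0.35, SE 0.089, adjusted p 0.0136, up to 0.109 without the second 0 h or the first 48 h library). In total reads of DPY30-mAID cells Cdc73 went from 171, 218 and 182 CPM to 115, 129 and 105 CPM at 24 h (−0.71, SE 0.142, adjusted p 7.99e-05). Ctr9, a scaffold subunit, had higher total reads in dKO cells at 48 h, at 52.0 and 35.8 CPM at 0 h and 64.9 and 63.0 CPM at 48 h (0.55, SE 0.146, adjusted p 0.0192, and 0.212 without the second 0 h library).

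The catalytic subunit of the polymerase changed in labelled reads of all 3 lines. Polr2a (ENSMUSG00000005198, GRCm38 chr11:69733997-69758637, minus strand) had 80.7, 93.2 and 97.9 T>C CPM at 0 h in DPY30-mAID cells, 60.6, 52.5 and 26.6 at 8 h (log2 change −0.96, SE 0.326, adjusted p 0.0356) and 26.8, 17.4 and 16.3 at 24 h (−2.16, SE 0.344, adjusted p 0.000145). The 24 h change stood far below the all-gene median of −0.14, although its call was lost without replicate 2 (adjusted p 0.237), and that of 8 h without replicate 2 or 3 (up to 0.287). In RBBP5-FKBP cells Polr2a went from 46.5, 35.5 and 46.7 to 23.6, 20.5 and 27.3 T>C CPM at 24 h (−0.85, SE 0.292, adjusted p 0.0244), without overlap, but the call was lost without each replicate (adjusted p up to 0.169). In dKO cells it went from 15.6 and 18.8 to 6.62 and 7.87 T>C CPM at 24 h and 4.51 and 3.76 at 48 h (−2.06, SE 0.259, adjusted p 9.23e-11).

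Total Polr2a reads of DPY30-mAID cells were 356, 367 and 469 CPM at 0 h, 486, 451 and 505 CPM at 8 h and 149, 142 and 163 CPM at 24 h. The 8 h libraries overlapped 0 h, and the 24 h libraries were all lower (−1.39, SE 0.118, adjusted p 8.88e-14), a call that held without each replicate. In RBBP5-FKBP cells total Polr2a was 537, 547 and 481 CPM at 0 h and 451, 497 and 539.6 CPM at 24 h, which overlapped (−0.07, SE 0.13, adjusted p 0.778). In dKO cells it was 331 and 340.0 CPM at 0 h and 278 and 279 CPM at 24 h (−0.27, SE 0.064, adjusted p 0.0131). That call is the one described above as held in 1 of 4 fits, and the difference between lines in total reads was not tested.

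Ssrp1, the HMG-box subunit of FACT, had 51.1, 48.2 and 51.0 T>C CPM at 0 h in DPY30-mAID cells and 27.9, 25.3 and 20.1 at 8 h, all lower (−1.04, SE 0.344, adjusted p 0.032, lost without each replicate number, up to 0.284). In RBBP5-FKBP cells at 24 h and dKO cells at 48 h it was lower by −1.20 (SE 0.356, adjusted p 0.00876, and 0.238 without replicate 2) and −1.97 (SE 0.303, adjusted p 3.98e-08). Of the super elongation complex, the scaffold gene Aff4 and the elongation factor gene Ell2 passed in T>C reads only in dKO cells at 48 h among the T>C comparisons made. Aff4 went from 7.75 and 7.30 to 3.06 and 3.18 T>C CPM (−1.27, SE 0.323, adjusted p 0.000494), and Ell2 from 6.11 and 8.36 to 4.66 and 4.62 (−0.65, SE 0.3, adjusted p 0.047, held in 1 of 4 fits, that without the first 0 h library).

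Whether the auxin effect on T>C reads differed between the dKO line and the DPY30-mAID line was tested as an interaction at the times the lines share. At 8 h edgeR called 0 of 29 members, against 0.0145% of 6901 genes with a lower and 0.304% with a higher effect in the dKO line, with 4 members at an unadjusted p below 0.05 and 0 by DESeq2. The members' median difference was 0.60 and the all-gene median 0.53. At 24 h 1 member passed (2.38% of genes with a lower effect, 0.0290% higher), and the medians were −0.59 and −0.68. That member was Ccnt1, for which the effect in dKO cells was lower by −1.31 (SE 0.367, adjusted p 0.0373), and the call was lost without replicate 1 or 2 (−1.50 to −1.14, adjusted p up to 1.00). With TMM factors from T>C reads, which moved the all-gene median to −0.09, the Ccnt1 difference was −0.72 (SE 0.239, adjusted p 0.103), and the only member that passed was Polr2a, in the opposite direction (1.53, SE 0.348, adjusted p 0.00824). For Hexim1 the difference was 1.22 at 8 h (SE 0.467, adjusted p 0.23), for Polr2a it was 0.93 at 24 h (SE 0.454, adjusted p 0.253), and for Ints11 it was −1.58 at 24 h (SE 0.951, adjusted p 0.373). The lines differ also in library depth, T positions per read and number of libraries, and these cannot be told apart from the genotype.

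The other genes of the same processes were taken from a list of 34, of which 31 were found. In T>C reads, 5 of 26 tested were lower in DPY30-mAID cells at 8 h, 5 of 21 in RBBP5-FKBP cells at 24 h and 16 of 23 in dKO cells at 48 h, and 0 were higher. These counts stand beside 16.1%, 25.9% and 72.2% of all genes lower. Tcea1, which encodes the elongation factor TFIIS, went from 23.6, 25.4 and 22.5 T>C CPM at 0 h to 8.48, 8.90 and 2.18 at 8 h in DPY30-mAID cells (−1.86, SE 0.47, adjusted p 0.00486, and 0.153 without replicate 2), but 91.5% of its reads map to more than 1 place and its level is uncertain. Mepce, the 7SK capping enzyme, had 14.6, 3.20 and 5.94 at 0 h and 0.874, 0.467 and 1.44 at 24 h in RBBP5-FKBP cells (−3.01, SE 0.93, adjusted p 0.0115, and 0.277 without replicate 1 and 0.0527 without replicate 2). Eaf1, a partner of the ELL proteins, had 9.98 and 14.7 at 0 h and 2.33 and 4.48 at 48 h in dKO cells (−1.86, SE 0.29, adjusted p 6.14e-08). In each of these genes the later libraries lay below every 0 h library.

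In the RA course most members had lower total reads at days 1, 2 and 4 than at 0 h, and their median was lowest at day 1. Of 31 tested members, 20 were lower and 1 higher at day 1 with DMSO against 0 h, where 23.9% of 11415 genes were lower and 27.9% higher. The members' median log2 fold change was −0.61 and that of all genes 0.10. At day 2 there were 19 lower and 1 higher (22.6% and 25.4% of all genes), and at day 4 19 lower and 3 higher (26.5% and 27.8%), with member medians of −0.47 and −0.42. At 8 h 7 were lower and 1 higher (9.40% and 8.94%), with adjusted p between 0.0188 and 0.0473, and DESeq2 called 0 of them. Without each library in turn, 0 of 8 calls held in every fit at 8 h, 16 of 21 at day 1, 11 of 20 at day 2 and 10 of 22 at day 4.

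Lower members were found in most subcomplexes. At day 1, 8 of 10 tested Integrator subunits were lower (median −0.94), as were both RNAPII genes (median −1.07), 2 of 3 P-TEFb genes, 3 of 5 PAF1 genes, 1 of 3 NELF genes and the FACT gene. Of the DSIF and SPT6 genes 2 were lower and 1, Supt4a, was higher, and neither gene of the super elongation complex passed. The calls of Ints2, Ints7, Ints10, Nelfb and Ccnt1 at day 1 were each lost without some library (adjusted p up to 0.16). These groups of cells also differed in cell type markers. The 6 ES cell markers summed to 4677 to 4953 CPM at 0 h, 3242 to 3439 CPM at day 1 and 1793 to 1819 CPM at day 4, all 6 having reads, and the 4 primitive endoderm markers rose from 8.54 to 9.26 CPM at 0 h to 1303 to 1304 CPM at day 4. The 4 trophectoderm markers, whose reads over all libraries were mostly of Krt8 and Krt18, went from 33.7 to 37.0 CPM at 0 h to 436 to 449 CPM at day 4. The 4 neural markers went from 112 to 125 CPM at 0 h to 59.9 to 61.8 CPM at day 4. The part of cell type in the members' values was not tested.

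**Figure D4:**
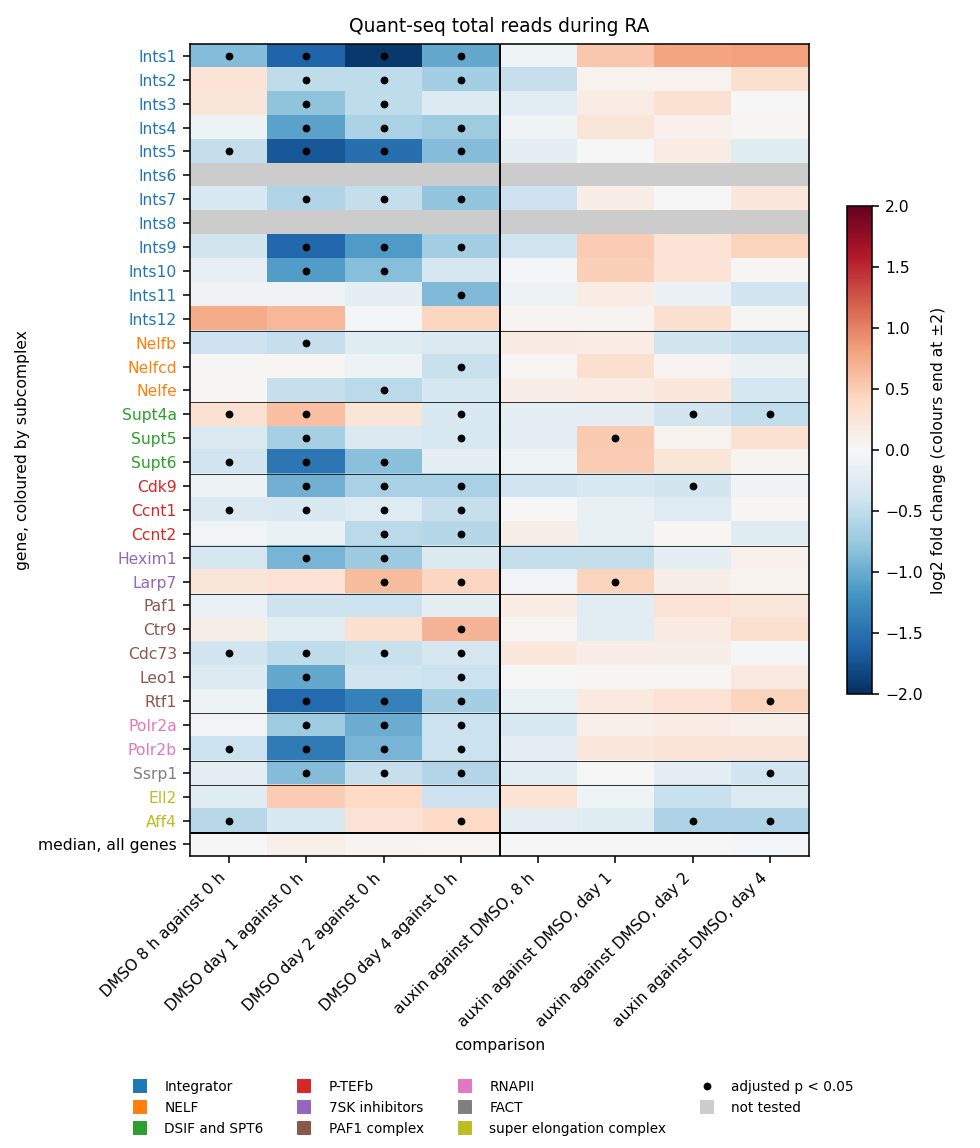
Log2 fold change of total reads for each member (rows, by subcomplex) in the RA course, DMSO against 0 h in the first 4 columns and auxin against DMSO at the same time in the last 4, with dots where the adjusted p was below 0.05, grey where a gene was not tested and colours ending at 2 either side of 0. The DMSO columns are mostly lower, with 20 of 31 members lower at day 1, and the auxin columns are mostly pale.

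The members with the lowest fold changes at days 1 and 2 were Integrator subunits, Ints5 at day 1 and Ints1 at day 2. Ints1 (GRCm38 chr5:139751282-139775674, minus strand) had 28.7 and 27.8 CPM at 0 h, 7.72 and 10.8 CPM at day 1, 11.04 and 3.89 CPM at day 2, and 12.5 and 15.2 CPM at day 4. Every later library was lower, with log2 changes of −1.60 (SE 0.337, adjusted p 0.000279), −1.93 (SE 0.339, adjusted p 3.62e-05) and −1.02 (SE 0.294, adjusted p 0.00466). Leaving out the first day 4 library gave −0.89 with an adjusted p of 0.0548. Ints5 had 111 and 107 CPM at 0 h, 36.8 and 30.1 CPM at day 1 and 58.8 and 60.4 CPM at day 4 (−1.70, SE 0.178, adjusted p 1.18e-08 at day 1, and −0.87, SE 0.157, adjusted p 4.18e-05 at day 4).

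Ints11 followed a later course than Ints1 and Ints5. It had 84.8 and 84.6 CPM at 0 h, 80.7 and 80.6 CPM at day 1, 67.3 and 82.2 CPM at day 2, 40.7 and 51.4 CPM at day 4 and 37.2 CPM in the day 6 sample. The day 1 change was −0.07 (adjusted p 0.786) and the day 4 change −0.88 (SE 0.197, adjusted p 0.000495). Ints9, its partner in the cleavage module, was lower already at day 1, at 17.8 and 12.03 CPM against 46.8 and 42.7 CPM at 0 h (−1.58, SE 0.261, adjusted p 1.45e-05).

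**Figure D5:**
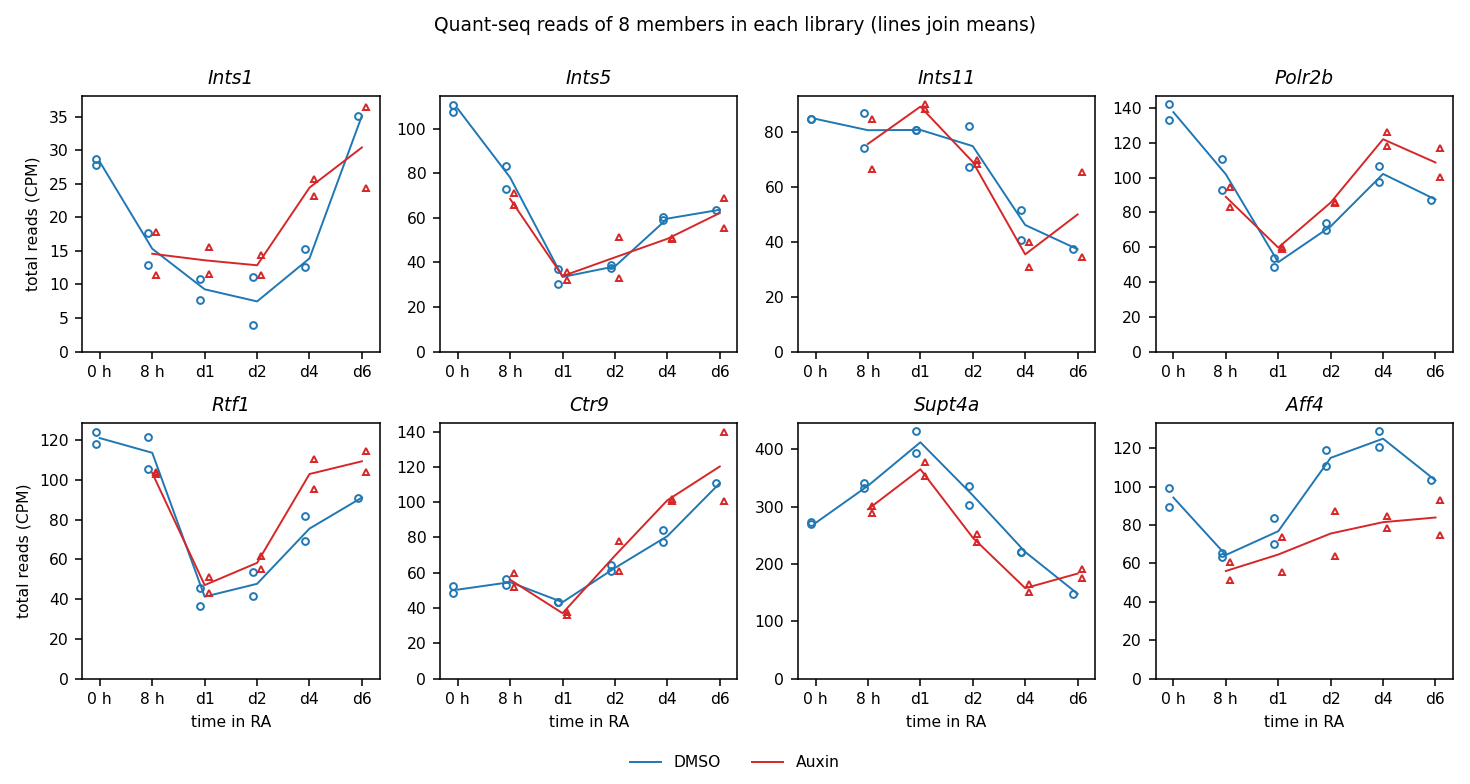
Total reads in CPM of selected members in the RA course, a point per library, with DMSO and auxin in different colours and lines joining group means. Ints11 falls late, from 84.6 to 84.8 CPM at 0 h to 40.7 to 51.4 CPM at day 4 with DMSO.

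The second RNAPII gene, Rtf1 and Supt6 had their lowest values at day 1. Polr2b, the second largest RNAPII subunit, had 133 and 142 CPM at 0 h, 54.0 and 48.7 CPM at day 1 and 97.7 and 106 CPM at day 4, and the day 1 change was −1.42 (SE 0.142, adjusted p 5.20e-09). Rtf1 had 118 and 124 CPM at 0 h, 36.8 and 45.7 CPM at day 1 and 69.2 and 81.9 CPM at day 4 (day 1 change −1.55, SE 0.164, adjusted p 1.24e-08). Supt6 went from 126 and 114 CPM to 48.7 and 39.7 CPM at day 1 (−1.44, SE 0.16, adjusted p 3.18e-08). Ctr9 went the other way at day 4, to 77.4 and 84.1 CPM from 52.6 and 48.3 CPM (0.68, SE 0.161, adjusted p 0.000874). Paf1 itself, at 34.1 and 23.5 CPM at 0 h and 30.7 and 19.7 CPM at day 4, overlapped (−0.18, SE 0.24, adjusted p 0.559).

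The 7SK genes diverged during the RA course. Hexim1 had 108 and 103 CPM at 0 h, 51.0 and 59.5 CPM at day 1, 62.0 and 64.2 CPM at day 2 and 92.6 and 79.6 CPM at day 4. It was lower at day 1 (−0.93, SE 0.188, adjusted p 0.000183) and day 2 (−0.73, adjusted p 0.00147), and its day 4 change of −0.29 did not pass (adjusted p 0.162). Larp7 went up, from 88.2 and 87.6 CPM at 0 h to 138 and 135 CPM at day 2 (0.64, SE 0.127, adjusted p 0.000177) and 109 and 126 CPM at day 4 (0.42, adjusted p 0.00655, and 0.0982 without the second day 4 library). Of NELF, Nelfcd was lower at day 4 (−0.44, adjusted p 0.0187), at 179 and 207 CPM against 278 and 247 CPM, a call lost without the first library of either time (adjusted p up to 0.164). Among the other pathway genes 15 of 30 were lower and 1 higher at day 4 (26.5% and 27.8% of all genes), the higher one being Mllt3, a YEATS-domain subunit of super elongation complexes, at 8.28 and 3.42 CPM at 0 h and 48.0 and 47.0 CPM at day 4 (3.04, SE 0.27, adjusted p 4.05e-10).

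Degrading DPY30 during RA changed few members. Against DMSO at the same time, edgeR called 0 of 31 members at 8 h (0.736% of genes lower, 0.0526% higher), with 6 at an unadjusted p below 0.05 and 0 by DESeq2. At day 1 it called 0 lower and 2 higher (3.49% and 3.52%), at day 2 3 lower and 0 higher (8.09% and 5.32%), and at day 4 3 lower and 1 higher (11.5% and 7.04%). The DMSO libraries are shared by the comparisons with 0 h and with auxin.

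The 2 members higher at day 1 were Supt5, at 122 and 126 CPM with auxin against 82.5 and 90.2 CPM (0.52, SE 0.145, adjusted p 0.0262), and Larp7, at 137 and 154 CPM against 96.2 and 118 CPM (0.44, SE 0.131, adjusted p 0.0382). In both the auxin libraries lay above the DMSO libraries, but the Supt5 call was lost without any 1 library (adjusted p up to 0.194) and the Larp7 call held only without the second DMSO library. Aff4 was lower at day 2, at 63.7 and 87.6 CPM against 111 and 119 CPM (−0.61, SE 0.16, adjusted p 0.0105), and at day 4, at 84.6 and 78.4 CPM against 129 and 121 CPM (−0.62, SE 0.155, adjusted p 0.00527). Rtf1 was higher at day 4, at 111 and 95.2 CPM against 69.2 and 81.9 CPM (0.45, SE 0.148, adjusted p 0.0333), and Supt4a and Ssrp1 were lower by −0.49 (adjusted p 0.00137) and −0.38 (adjusted p 0.016). The Aff4 calls held in 2 of 4 fits at day 2 and at day 4, that of Rtf1 in 2 of 4 and that of Ssrp1 in 1 of 4, with the adjusted p reaching 0.226, 0.0643, 0.272 and 0.134 without 1 library. Cell type markers differed between the same groups. At day 1 the 4 RA response markers summed to 806 to 857 CPM with auxin and 1537 to 1650 CPM with DMSO. The neural markers then summed to 97.9 to 101 CPM with auxin and 61.3 to 68.9 CPM with DMSO. For the ES cell markers the sums were 2965 to 2980 CPM with auxin and 3242 to 3439 CPM with DMSO. At day 2 the primitive endoderm markers summed to 181 to 203 CPM with auxin and 328 to 342 CPM with DMSO, and the trophectoderm markers to 156 to 178 and 216 to 257 CPM. At day 4 the primitive endoderm markers, all 4 having reads, summed to 429 to 432 CPM with auxin and 1303 to 1304 CPM with DMSO, and the ES cell markers to 1185 to 1239 CPM with auxin and 1793 to 1819 CPM with DMSO. Their part in these differences was not tested.

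Hexim1, Ints11 and Paf1 did not pass between auxin and DMSO at any tested time. Hexim1 had 62.1 and 56.9 CPM with auxin at 8 h against 81.2 and 85.0 CPM (−0.48, SE 0.188, adjusted p 0.301) and 41.2 and 38.3 CPM at day 1 against 51.0 and 59.5 CPM (−0.47, SE 0.223, adjusted p 0.226). The auxin libraries were the lower ones at both times, and at day 4 the groups overlapped at 95.9 and 86.8 CPM against 92.6 and 79.6 CPM. Ints11 had 30.8 and 40.0 CPM with auxin at day 4 against 40.7 and 51.4 CPM (−0.38, SE 0.223, adjusted p 0.262). Ints1 had 25.6 and 23.2 CPM with auxin at day 4 and 12.5 and 15.2 CPM with DMSO, without overlap (0.81, SE 0.304, adjusted p 0.0621).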

How the data were processed

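SLAM-seq was made from 3 lines and Quant-seq from a retinoic acid course. The authors deposited counts per 3′ UTR interval (total reads and T>C reads, 46420 intervals), made per the file headers with SlamDunk 0.3.4 on GENCODE vM14 intervals (GRCm38). The study's methods name HISAT2 2.2.1 for Quant-seq, whereas those file headers too name SlamDunk. The deposited coverage per interval (signal), given as T positions covered by reads, served for conversion rates. The T>C counts include reads with 1 conversion, whereas the study used reads with 2 or more.

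Intervals were summed per gene (20177 genes), and gene positions come from GENCODE vM21. CPM and T>C CPM are per 1000000 reads of the effective library size, which is the library's total reads times its TMM factor within its line or course. The medians of Kdm5a and Kdm5b are per 1000000 total reads without that factor. Genes averaging 10 or more reads in some group were tested with edgeR 4.0.16 (R 4.3.3), each line on its own, by the quasi-likelihood test with Benjamini-Hochberg adjustment over all tested genes, and a gene passed at an adjusted p below 0.05. T>C reads used the library sizes and TMM factors of total reads. DESeq2 1.42.0, TMM from T>C reads, no TMM, no filter, a log2 fold change above 1, a replicate block and leaving out libraries were alternatives. The steps were tested on simulated data. Depth is given in the report, and intervals cover counting error only. Members found by symbol were 33 of 35, and Ints8 in all tests and Ints6 in several had too few reads.

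The members and lists were chosen with earlier results of these data known. Named members are Ints11, Paf1 and Hexim1 in full, the 3 largest passing changes without overlap in each main comparison and at least 1 member per subcomplex, and other named members, such as Ccnt1 and Nelfcd, were chosen after their values were seen. Replicate numbers were not taken to pair the samples in the main fits. Levels of Supt4a, Cdk9, Hexim1, Ccnt2 and Ints5, and of Tcea1 among the other pathway genes named, are uncertain because over 10% of their reads had several positions. The same holds for the markers Pou5f1, Zfp42, Klf4, Nanog, Krt8 and Tubb3.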

Additional observations from a re-analysis of the deposited data

Results flagged for a closer look

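Ccnt1, the cyclin T1 gene, was the member called in the interaction test between lines. The auxin effect on its T>C reads at 24 h was lower in dKO than in DPY30-mAID cells by a log2 difference of −1.31 (adjusted p 0.0373, edgeR), beside an all-gene median difference of −0.68. That call held in 1 of 3 fits without 1 replicate number (adjusted p up to 1.00) and was lost with TMM factors from T>C reads (−0.72, adjusted p 0.103). The T>C changes at 24 h were 0.80 in DPY30-mAID cells, with all 3 libraries above all 0 h libraries, −1.23 in RBBP5-FKBP cells and −0.53 in dKO cells, with all libraries below, and the DPY30-mAID change itself did not pass (adjusted p 0.0972, edgeR). The contrast with RBBP5-FKBP cells was not tested. In total reads at 24 h Ccnt1 was higher in every DPY30-mAID library (0.40) and lower in every RBBP5-FKBP library (−0.21), where it did not pass (adjusted p 0.328, edgeR), and that difference was not tested either.

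Ccnt2 total reads at 8 h were higher in every RBBP5-FKBP library (0.61) and lower in every dKO library (−0.19) than at 0 h, but the dKO value did not pass (adjusted p 0.509, edgeR) and the RBBP5-FKBP call was lost without any 1 replicate. Of Supt4a reads 93.0% map to more than 1 place, so its level is uncertain. Its total reads at 24 h were higher in every DPY30-mAID library (0.49), a call held in 2 of 3 fits without 1 replicate. They were lower in every dKO library (−0.15), where Supt4a did not pass (adjusted p 0.191, edgeR). Neither difference was tested. RBBP5-FKBP and dKO cells differ in degron, ligand, Kdm5a/b genotype and depth, and DPY30-mAID and dKO cells, which share degron and ligand, in genotype and depth.

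Quant-seq libraries received no 4SU, yet for 4 members the whole 95% Wilson interval of the T>C share lay above the 0.346% of all reads. Among the genes tested in Quant-seq this held for 4 of 31 members (12.9%) and 1688 of 11415 genes (14.8%), so the members' share was near that of all genes. The shares were 1.97% for Larp7 (95 of 4814 reads, 95% Wilson interval 1.62 to 2.41%), 0.598% for Cdk9 (30 of 5019), 0.590% for Rtf1 (20 of 3388) and 0.478% for Supt4a (52 of 10889). Ints10 (0.605%), Ints9 (0.594%) and Ints11 (0.524%) also lay above 0.346%, with intervals that reached below it. In labelled libraries at 0 h the share of Larp7 was 12.8% in DPY30-mAID, 8.12% in RBBP5-FKBP and 3.96% in dKO cells, whose reads cover about as many T positions as the Quant-seq reads.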

How the results depend on the processing

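Over the 164 member results past the threshold, DESeq2 kept 127 and lost 37, no TMM lost 26, no filter on low counts lost 22, and 69 held in every fit that left out 1 library or replicate number, while 95 were lost in at least 1. Leaving out a replicate number was not run for dKO cells on their own or for the RA course, because no residual degrees of freedom remain. Single libraries were left out there, and at 8 h in DPY30-mAID cells too, a choice made after seeing the data. The interaction fit pools dKO and DPY30-mAID cells, and replicate numbers were left out of it. Its fits without replicate 1 or 2 hold 1 library per dKO group. A lone library is then assumed to vary like the other groups. T>C reads limit the depth: Ints11 had at most 13 per RBBP5-FKBP library.

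Counts of members passing in T>C reads changed as follows, the cause being not tested. In DPY30-mAID cells at 8 h the count of 7 became 1 with TMM from T>C reads, 2 without TMM and 3 without the filter, and 0 to 13 without 1 library. At 24 h the count of 3 became 5 with DESeq2 and 5 with TMM from T>C reads, and 0 to 3 without 1 library. In RBBP5-FKBP cells TMM from T>C reads gave 0 for 2 at 8 h and 0 for 6 at 24 h, and leaving out replicates gave 1 to 2 and 3 to 4. In dKO cells at 24 h the count of 14 became 9 with DESeq2, 3 with TMM from T>C reads and 9 with the fold limit, and 8 to 15 without 1 library, and at 48 h the count of 20 became 2 with TMM from T>C reads and 14 to 21 without 1 library. The difference between dKO and DPY30-mAID cells at 24 h gave 2 with DESeq2, 0 without the filter and 0 to 2 without 1 replicate, instead of 1, and with TMM from T>C reads the 1 call was Polr2a higher in place of Ccnt1 lower.

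In total reads of DPY30-mAID cells, the fold limit gave 0 for 6 at 8 h and 4 for 15 at 24 h, no TMM gave 9 at 8 h, and leaving out libraries gave 3 to 7 and 10 to 12. In RBBP5-FKBP cells at 8 h the count of 4 became 2 without the filter, 0 with the fold limit and 0 to 3 without 1 replicate, and at 24 h the count of 0 became 1 without the filter. In dKO cells the count at 8 h of 0 became 1 without the filter and 0 to 1 without 1 library, the count at 24 h of 2 became 4 without TMM, 0 with the fold limit and 0 to 2 without 1 library, and the count at 48 h of 4 became 7 without TMM, 0 with the fold limit and 3 to 4 without 1 library.

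In the RA course with DMSO, the count at 8 h of 8 became 0 with DESeq2, 5 without the filter, 0 with the fold limit and 0 to 2 without 1 library. The fold limit gave 9 for 21 at day 1 and 4 for 20 at day 2, and leaving out libraries gave 18 to 20 and 13 to 17. At day 4 the count of 22 became 14 with DESeq2, 13 without TMM, 1 with the fold limit and 13 to 17 without 1 library. For auxin against DMSO, the count of 2 at day 1 became 1 with DESeq2, 1 without the filter, 0 with the fold limit and 0 to 1 without 1 library, the count of 3 at day 2 became 1 without TMM, 0 with the fold limit and 0 to 3 without 1 library, and the count of 4 at day 4 became 2 with DESeq2, 7 without TMM, 0 with the fold limit and 2 to 3 without 1 library.

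Deviations of same-numbered libraries from their group means had mean correlations between −0.0074 and 0.048 over the lines and the RA course. Single pairs reached 0.339 in dKO total reads and 0.281 in the RA course. Where groups have 2 libraries, their deviations are equal and opposite, so this check is weak there. A fit with the replicate number as a block lost 3 calls, those of Nelfcd in DPY30-mAID total reads at 8 h, of Ccnt1 in RBBP5-FKBP total reads at 8 h, where the count became 3, and of Cdk9 for auxin at day 2, where it became 2, and it changed no other member call.

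Among the named changes, signs reversed for Hexim1 in dKO cells at 48 h, which had passed, and for Ints11 and Paf1 changes that had not. Ints11 T>C in DPY30-mAID cells at 8 h was 0.75 with TMM from T>C reads, 0.016 without TMM and −0.43 to 0.19 without 1 library or replicate, and Paf1 was 0.14 with TMM from T>C reads and −1.23 to 0.24. In RBBP5-FKBP cells at 24 h Ints11 was −1.38 to 0.21 without 1 replicate, and Paf1 was 0.19 with TMM from T>C reads and −0.96 to 0.14. In dKO cells at 48 h TMM from T>C reads gave 0.41 for Ints11, 1.05 for Paf1 and 0.0022 for Hexim1, and leaving out 1 library gave −2.68 to 0.043 for Ints11 and −0.45 to 0.13 for Paf1. Paf1 at day 4 of RA was 0.0001 without TMM and −0.54 to 0.10 without 1 library. TMM from T>C reads turned the sign of 10 of 53 passing T>C results, all in dKO cells.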
